A study of Rattus norvegicus with 6 samples.

Results

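The cytosolic ribosomal protein genes were taken as all probe sets of the array whose only gene symbol begins with Rpl or Rps, without the Rps6k kinases. This gave 64 probe sets of 44 genes among the 8799 probe sets of the array, which name 4736 genes, and 59 probe sets of 41 genes were bright enough to be tested among 5244. The samples were brain capillaries of stroke-prone spontaneously hypertensive rats (SHRSP), inbred rats that develop severe hypertension and strokes, aged 6 weeks. The control group had 2 arrays. The ACEI group received lisinopril, an inhibitor of the enzyme that forms angiotensin II, at 6 mg/kg per day, and had 2 arrays. The ARB group received olmesartan, a blocker of the angiotensin type 1 receptor, at 4 mg/kg per day by mouth, and had 2 arrays. The labels also name 1% NaCl without saying which groups drank it. All groups were SHRSP, with no normotensive strain beside them, and whether an array holds 1 animal or a pool is not stated, so the spread below is that between arrays. The series asks how angiotensin II affects gene expression in these vessels, and both drugs were set against the control and against each other.

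A cytosolic ribosome joins a small subunit, which reads the mRNA, and a large subunit, which forms the peptide bond and releases the chain through an exit tunnel. Its proteins, named Rps for the small and Rpl for the large subunit, are needed in equal numbers, and their mRNAs are among the most abundant of any cell. In brain capillaries they serve mainly endothelial cells and the pericytes around them. Most of these mRNAs begin with a C followed by an unbroken run of pyrimidines, the 5' terminal oligopyrimidine (TOP) start, through which growth signals that act on the kinase mTOR switch their translation together. Several of the proteins also act away from the ribosome, such as Rpl11, which binds the p53 regulator Mdm2.

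Some of the genes show this start in their annotated first bases. RefSeq (build GRCr8) gave a start for 37 of the 44 genes, and the annotated first base was a C followed by at least 4 of C or T on the coding strand in 11 of them (29.7%), against 2.43% of 2588 other genes tested on the arrays. With a start of the run allowed up to 5 bases to either side, 17 genes (45.9%) had it, against 16% of the other genes. The following starts belong to genes that recur below. Each is shown from 20 bases before the annotated start over 10 bases from it, with the pyrimidine run from its C in capitals, and the last pair has no such run that begins within 5 bases of the annotated start.
Rpl22, chr5:168117941-168117970, + strand: cctgcgtagtgcgcccccctCCCTTTCTgc
Rpl35a, chr11:81235012-81235041, - strand: gcgcggcgggtcttgccttcCTCTTTCCgc
Rpl39, chrX:121195887-121195916, - strand: cagcgtcttctaatcgcgttCTTCCggcct
Rps15, chr7:10068106-10068135, - strand: gcagccgctgacaccgcttcCTTTTCCCag
Rps6, chr5:106420531-106420560, - strand: ttcgtgacgcctcctaggcggtcggctgtg
Rpl36al1, chr6:93392249-93392278, - strand: tcagttccgacttccgctccatccgtccct

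The arrays differed in several measures that bear on these genes. Control 1 and ACEI 1 were run on 1 day with 1 chip lot, and the remaining 4 arrays on a later day with another lot, so both ARB arrays share their day with control 2 and ACEI 2 only. The fluidics protocol followed the replicate number, with 1 protocol for replicate 1 of each group and another for replicate 2. The Gapdh signal at its 3' end over that at its 5' end, a ratio that degraded RNA raises, was 7.31 for control 2 and lay between 0.933 and 1.59 elsewhere. The same ratio for Actb was 2.05 and 1.65 with ARB, 1.10 and 3.15 on the control arrays and 1.04 and 1.35 with ACEI. The 5S rRNA probe set was at 5813 and 5451 with ARB and between 105.5 and 1880 elsewhere.

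Markers of several cell types also differed between the arrays. The choroid plexus markers measured (2 of 2) summed to 203488 and 203268 with ARB, 34222 and 92387 on the control arrays and 43977 and 37196 with ACEI. Ttr made up nearly all of this sum, while Kl was at 1102 and 1794 with ARB, 3295 and 239.6 on the control arrays and 5725 and 2564 with ACEI. The 6 microglia and macrophage markers measured of 7 summed to 10524 and 10376 with ARB, 33939 and 30622 on the control arrays and 16533 and 36538 with ACEI. The 5 astrocyte markers measured of 6 summed to 10438 and 9930 with ARB, 28865 and 22676 on the control arrays and 28987 and 34321 with ACEI. Glul was the brightest of them and had the largest fall, with 4491 and 3747 with ARB and 21666 and 14157 on the control arrays. Slc1a2 was higher with ARB, by 0.97. The 6 pericyte and smooth muscle markers measured of 7 summed to 28368 and 33811 on the control arrays, 15179 and 12207 with ACEI, and 15612 and 16494 with ARB. Acta2 carried most of that sum. With ARB, 5 of 6 tested microglia and macrophage markers, 3 of 4 astrocyte, 4 of 5 oligodendrocyte, 4 of 5 pericyte and smooth muscle and 4 of 4 blood markers were lower than control. Among the blood markers Hbb differed by only -0.03, and its ARB arrays, at 46802 and 40285, lay between the controls, at 21900 and 90197. Of 15 endothelial markers 11 had a named probe set, none was at 0, and their summed intensity lay between 68519 and 149579 on the 6 arrays. The glucose transporter Slc2a1 and the anion transporter Slco1a4 carried most of that sum. The median endothelial marker was at 3014 and 262.2 on the control arrays, 1809 and 2225 with ACEI, and 937.9 and 1036 with ARB, with Pecam1 at 5538 on control 1 and 193.8 on control 2. The 7 of 10 neuronal markers measured summed to 1597 and 2498 on the control arrays, 3866 and 4290 with ACEI, and 4920 and 5777 with ARB. Of the 5 tested, 0 were lower than control with ARB and 1 with ACEI. The part of these differences in the results below was not tested.

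On every array the ribosomal probe sets were among the brightest, with 47 to 51 of the 59 in the brightest 10%. Their median intensity was 9299 and 11206 on the control arrays, 7419 and 12047 with ACEI, and 5942 and 5642 with ARB. Both ARB arrays lay below all 4 other arrays, while the ACEI arrays lay on either side of both controls. The median of the other tested probe sets went the opposite way, with 804.8 and 665.8 on the control arrays, 837.4 and 718.9 with ACEI, and 955.3 and 965.8 with ARB. On the log2 scale the ribosomal median therefore stood 3.39 and 3.90 above that of the other probe sets on the control arrays, 3.02 and 3.91 with ACEI, and 2.53 and 2.44 with ARB. The SD between arrays of a group, pooled over the groups, was 0.42. On the control arrays all 64 ribosomal probe sets, tested or not, carried 4.98% and 7.26% of the signal of the array without its control probe sets. This share was 4.30% and 6.10% with ACEI, and 3.78% and 3.73% with ARB. In RNA of whole vessels, fewer cells of a type and less RNA per cell cannot be told apart.

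The distance between the ARB arrays and the others was smaller after quantile or cyclic loess normalization. Median centring, which shifts each array as a whole, left it unchanged. After quantile normalization, which gives every array the same distribution, the ribosomal median stood 3.30 and 3.34 above the others on the control arrays, 3.03 and 3.56 with ACEI, and 2.98 and 2.93 with ARB. The ARB arrays were again the lowest, now only slightly below ACEI 1. Against the other probe sets among the brightest 10% of the array, which share the intensity range of the ribosomal ones, the same distance was 0.62 and 0.75 on the control arrays, 0.35 and 0.88 with ACEI, and 0.26 and 0.22 with ARB.

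The control pair was the least alike of the 3 pairs. Control 2 was higher than control 1 in 43 of the 59 probe sets, with a median difference of 0.89 (log2), against 0.00 for the other probe sets. It was over 2-fold higher in 26 of them (14.2% of all tested probe sets) and over 2-fold lower in 4 (20.7% of all). The differences ran from -2.30 for 1 probe set of Rps3, a protein at the mRNA entry of the small subunit, to 2.07 for 1 of Rpl3, a protein of the peptidyl transferase centre. ACEI 2 was likewise above ACEI 1, by a median of 0.64, with 10 probe sets over 2-fold higher and 4 lower. The ARB arrays, which shared day and lot but not fluidics protocol, differed by a median of -0.06. No ribosomal probe set differed over 2-fold between them. Rps29, a small zinc-binding protein of the small subunit and the brightest member, gave 26139 and 83890 on the control arrays, 33459 and 34530 with ACEI, and 48749 and 51443 with ARB. Both treated groups lay between the controls, so the largest gap for this gene was the one within the control group.

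Against control, the mean of both drugs was lower in most ribosomal probe sets, and no single one passed the test. Of the 59, 48 were lower and 11 higher (39.8% of all tested probe sets were lower), with a median log2 difference of -0.39 against 0.15 for the other probe sets. At an adjusted p of 0.05 limma called 0 ribosomal probe sets and 0 of all 5244, and the smallest adjusted p of a ribosomal one was 0.835. At an unadjusted p under 0.05, 3 were lower (2.02% of all) and 0 were higher (3.43% of all). All 4 treated arrays lay below both controls in 3 of the 59 (3.68% of all) and above both in 0 (4.63% of all). The lower counts were close to the share of the whole array. The median relative to the other probe sets, -0.54, was -0.94 without control 1 and -0.18 without control 2, and also -0.20 after quantile and -0.22 after cyclic loess normalization.

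Rpl22, a large subunit protein at the tunnel exit, had the lowest value of all members. Its intensity was 18503 and 39789 on the control arrays, 12919 and 10635 with ACEI, and 10914 and 11224 with ARB. All 4 treated arrays were below both controls, and the difference of -1.25 ± 0.45 (SE, n = 2 control and 4 treated arrays) had an unadjusted p of 0.0224 and an adjusted p of 0.835 by limma. Rpl36al1, a close relative of Rpl36a, which contacts the tRNA exit site, gave 3444 and 7735 on the control arrays, 2943 and 4246 with ACEI, and 1531 and 1249 with ARB. The ACEI arrays overlapped the controls and the ARB arrays were the lowest, with a mean difference of -1.19 ± 0.46 for both drugs. Rpl35a, a large subunit protein that is mutated in some patients with Diamond-Blackfan anaemia, gave 6288 and 19924 on the control arrays, 4800 and 10306 with ACEI, and 5162 and 2800 with ARB, a difference of -1.10 ± 0.59. Only ACEI 2 lay above the lower control here.

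In the small subunit, Rps6, the substrate of the S6 kinases, was measured by a pair of probe sets. The brighter gave 11973 and 32889 on the control arrays, 8896 and 13925 with ACEI, and 7928 and 9116 with ARB, a difference of -1.02 ± 0.51. The other gave 5866 and 5862 on the control arrays, 3962 and 7893 with ACEI, and 3784 and 4190 with ARB, a difference of -0.31 ± 0.43. Both showed ARB below control, while the controls were far apart on one and alike on the other. Rpsa, a small subunit protein also known as the laminin receptor, gave 10357 and 20156 on the control arrays, 5663 and 13583 with ACEI, and 5844 and 5660 with ARB on its brighter probe set, a difference of -1.01 ± 0.50. The pseudogene Rps4x-ps9, whose probe set may read the Rps4x mRNA it derives from, had -0.94 ± 0.63, and its control arrays were at 2689 and 10827. Without control 2 this value turned to 0.05. Rplp0, the base of the stalk that binds elongation factors, had 22100 and 12216 on the control arrays, 17852 and 21661 with ACEI and 10845 and 13049 with ARB, a difference of -0.10 ± 0.42 with overlapping groups.

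The highest values over all probe sets were those of 1 of Rps15 (0.92 ± 0.54) and 1 of Rpl21 (0.89 ± 0.49), which are dimmer than another probe set of their gene. At the brightest probe set of each gene, Rpl19l4, a gene related to the tunnel protein Rpl19, differed by 0.79 ± 0.96, Rpl17, which lines the tunnel exit, by 0.62 ± 0.55, Rps15 by 0.56 ± 0.45 and Rpl6, a large subunit protein, by 0.26 ± 0.60. The direction of Rpl19l4 was turned without control 1 or ACEI 1 and on the later run day alone (-1.08), and that of Rpl17 without control 1 and on the later run day (-0.27). The direction for Rpl6 was turned by median centring (-0.07) and without control 2. By subunit, 31 of 39 large subunit probe sets were lower with a median of -0.57, and 16 of 19 small subunit ones with a median of -0.33. The 9 probe sets of tunnel exit proteins were lower in 8, with a median of -0.66. Those of the mRNA channel proteins Rps3, Rps15 and Rps23 were lower in 3 of 6, with a median of 0.00. All 13 probe sets of Diamond-Blackfan anaemia genes were lower, with a median of -0.39 and the least of them at -0.06. No test of one sub-list against another was made.

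**Figure D1:**
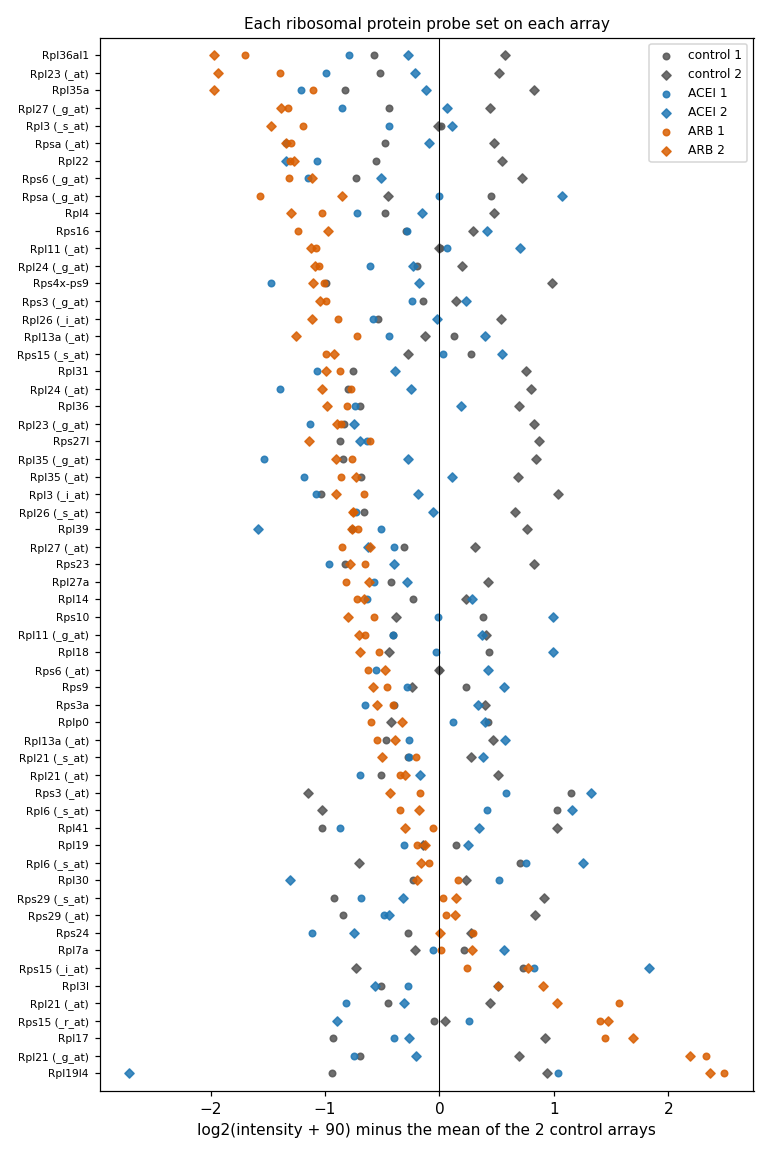
log2(intensity + 90) of the 59 tested ribosomal protein probe sets on each array, relative to the mean of the control pair, ordered by the ARB difference, with circles for replicate 1 and diamonds for replicate 2. In 32 probe sets both ARB points lie left of both control points, and in 6 they lie right of both.

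With the ACE inhibitor alone, most ribosomal probe sets were lower than control, by amounts inside the spread of the arrays. Of the 59, 44 were lower (53.3% of all tested), with a median of -0.39 against -0.04 for the others. limma called 0 at an adjusted p of 0.05 (smallest 0.992), and at an unadjusted p under 0.05 it had 1 lower (1.37% of all) and 0 higher (1.2% of all). Both ACEI arrays lay below both controls in 4 probe sets (12.1% of all) and above both in 3 (11.4% of all). The relative median of -0.35 turned to 0.09 without control 2, where 23 of 59 were lower, and to 0.01 without ACEI 1.

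Rpl22 again had the lowest value of all probe sets, -1.20 ± 0.51, with an unadjusted p of 0.046 and both ACEI arrays below both controls. Rps24, a small subunit protein and Diamond-Blackfan anaemia gene, gave 1114 and 1665 on the control arrays, 583.7 and 778 with ACEI, and 1692 and 1365 with ARB. Its ACEI arrays were below all other arrays, with -0.93 ± 0.47 for ACEI and 0.15 ± 0.47 for ARB. Rpl39, a small protein inside the exit tunnel, gave 4825 and 14082 on the control arrays and 5781 and 2690 with ACEI, a difference of -1.05 ± 0.63 with overlapping groups.

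Rpl23, another Mdm2 binder, and Rpl35, a tunnel exit protein, followed with -0.94 ± 0.60 and -0.91 ± 0.67 at their brighter probe sets. Rpl19l4 had -0.84 ± 1.11. Its ACEI arrays were at 11830 and 800.7, so that leaving out ACEI 2 gave 1.03, and leaving out control 2 gave 0.10. The highest values at a gene's brightest probe set were those of Rpl6 (0.79 ± 0.69), Rps10 of the small subunit (0.49 ± 0.53), Rpl18 of the large subunit (0.48 ± 0.54) and Rpl11 (0.38 ± 0.46). Dimmer probe sets of Rps15 (1.33 ± 0.63), Rpl6 (1.01 ± 0.57), Rps3 (0.95 ± 0.73) and Rpsa (0.53 ± 0.58) were also among the highest, and for those of Rps15 and Rpl6 both ACEI arrays lay above both controls. The Rpl6 value of 0.79 turned to -0.24 without control 2, and Rps10 and Rpl18 to -0.02 and -0.03 without ACEI 2. On the day shared by control 1 and ACEI 1, ACEI was lower in 42 of 59 probe sets with a median of -0.24 (others 0.07), and on the other day ACEI 2 was lower than control 2 in 38 with a median of -0.63 (others -0.18).

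With the receptor blocker, the ribosomal probe sets as a body were further below control. Of the 59, 48 were lower (41.4% of all tested), with a median of -0.72 against 0.21 for the other probe sets. Both ARB arrays lay below both controls in 32 probe sets of 26 genes (16.6% of all) and above both in 6 probe sets of 5 genes (34.3% of all). limma called 0 at an adjusted p of 0.05, with a smallest value of 0.164, and had 7 lower (4.65% of all) and 4 higher (13.7% of all) at an unadjusted p under 0.05. The share with separated groups was therefore above that of the array downwards and below it upwards. The 32 are 54.2% of the members. Among other probe sets in the brightest 10%, both ARB arrays lay below both controls in 292 (35.5%). They lay above both in 145 (17.6%). Bright probe sets that are not members thus stood between the members and the whole array in the downward share.

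These counts moved with the scaling and with the controls. After quantile normalization both ARB arrays lay below both controls in 20 of the 59 (21.9% of all) and above in 6 (25.1% of all), after cyclic loess in 18 (19.5% of all) and 7 (27% of all), and after median centring in 46 (36.8% of all) and 3 (16.2% of all). The median difference of the other probe sets itself went from 0.21 to -0.04, 0.03 and -0.41 under these scalings, and the ribosomal one to -0.32, -0.32 and -1.34. The relative median was -0.93, -0.28 after quantile and -0.35 after cyclic loess normalization, and -1.39 without control 1 and -0.45 without control 2. On the later run day alone, where only control 2 with its high Gapdh ratio stands for the control, the mean of the ARB arrays was lower in 48 of 59, by a median of -1.04 (others 0.35). Among the 823 other probe sets in the brightest 10%, 555 were lower, with a median of -0.35, so lower ARB values were also the more frequent among bright probe sets that are not ribosomal members.

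**Figure D2:**
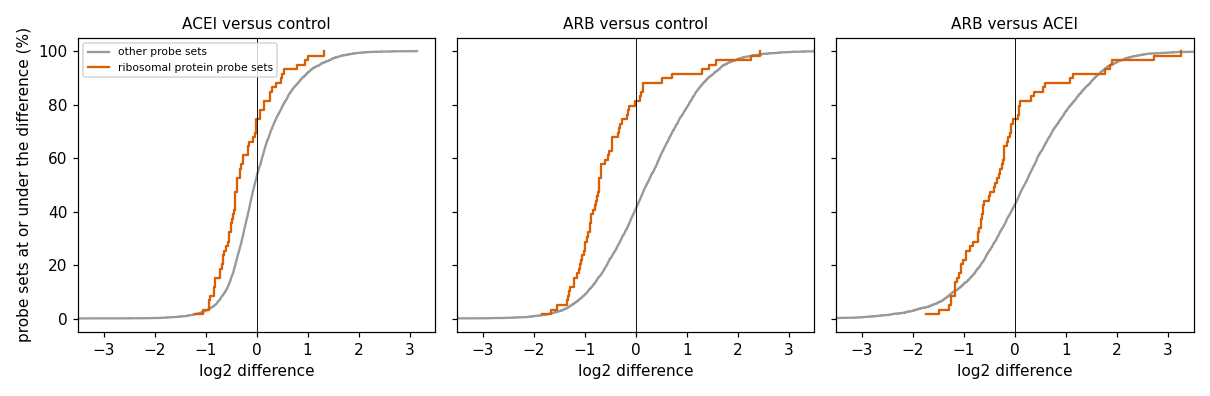
Cumulative share (%) of log2 differences for the 59 ribosomal protein probe sets and for the 5185 other tested probe sets, with ACEI or ARB set against control in the first panels and against each other in the last. The ribosomal curve lies to the left over most of its range, with medians of -0.39, -0.72 and -0.39 against -0.04, 0.21 and 0.19, and its upper end reaches values above 2 for ARB.

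Rpl36al1 had the lowest ARB value, -1.84 ± 0.54, with an unadjusted p of 0.00839 and an adjusted p of 0.181 by limma. Its values of 1531 and 1249 were below those of all 4 other arrays. The dimmer probe set of Rpl23 came next at -1.67 ± 0.55. At the brightest probe set of each gene, Rpl35a followed at -1.54 ± 0.68, and Rpl27, a large subunit protein, at -1.35 ± 0.53. The Rpl27 intensities there were 10922 and 20272 on the control arrays, 8215 and 15625 with ACEI, and 5898 and 5642 with ARB, with no overlap between ARB and the rest. On its other probe set the ARB arrays, at 4315 and 5126, overlapped the ACEI arrays, at 5941 and 5070. The ARB difference from control was -0.73 ± 0.47 there.

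Rpsa (-1.32 ± 0.58), Rpl22 (-1.29 ± 0.51) and Rps6 (-1.22 ± 0.58) also had both ARB arrays below both controls. For each of these genes the ARB arrays overlapped the ACEI arrays. ACEI 1 lay between the ARB arrays for Rpsa and Rps6, and for Rpl22 both ARB arrays lay between the ACEI arrays. The second probe set of Rpsa, at 12815 and 6853 on the control arrays and 3113 and 5172 with ARB, gave -1.21 ± 0.58 although its controls ran the opposite way. The 6 probe sets of the Mdm2 binders Rpl11, Rpl23 and Rps3 were all lower, with a median of -0.95. The 13 of the Diamond-Blackfan anaemia genes were lower in 10, with a median of -0.73, and 8 of 9 at the tunnel exit were lower, with a median of -0.79.

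A few members went strongly the other way. Rpl19l4 had 2947 and 11085 on the control arrays, 11830 and 800.7 with ACEI, and 32516 and 29975 with ARB. Both ARB arrays were above all others, and the difference was 2.43 ± 1.11, with an adjusted p of 0.285 by limma. Rpl17 had 390.1 and 1645 on the control arrays, 604.4 and 669.5 with ACEI, and 2402 and 2862 with ARB. It differed by 1.57 ± 0.63, again with both ARB arrays above all others. Rpl3l, a relative of Rpl3 known from heart and skeletal muscle, had 331.1 and 768.1 on the control arrays and 768.2 and 1036 with ARB, so that the groups only just separated, with 0.71 ± 0.52. Rps15, a small subunit protein at the decoding site, differed by 1.44 ± 0.52 on its brightest probe set and by -0.96 ± 0.47 on the next, as set out below.

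Both ARB arrays lay below all 4 other arrays in 21 of the 59 probe sets (11.5% of all tested) and above all 4 in 6 (28.9% of all). These 6 belong to Rpl17, Rpl19l4, Rpl3l, Rps15 and a pair of Rpl21. Ttr was highest on the same arrays while Kl was not, and the added hybridization controls had medians of 7525 and 5387 there against 1012 to 3274 elsewhere. The part of either in these values was not tested.

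Set directly against the ACE inhibitor, the receptor blocker was lower in 44 of 59 probe sets (43% of all tested), with a median of -0.39 against 0.19. This comparison does not use the control arrays, except through the pooled variance. Both ARB arrays were below both ACEI arrays in 27 probe sets (25.2% of all) and above both in 9 (38.2% of all). The 27 and the 9 are 45.8% and 15.3% of the members. Of the 823 bright probe sets that are not members, 363 (44.1%) were below and 201 (24.4%) above, with a median of -0.27. The downward share was thus nearly the same in members and in other bright probe sets. Among the members limma called 0 at an adjusted p of 0.05 (smallest 0.101). It had 6 lower (6.69% of all) and 6 higher (16.9% of all) at an unadjusted p under 0.05. The relative median of -0.57 was -1.08 without ACEI 1, -0.28 without ACEI 2, and -0.16 after either quantile or cyclic loess normalization.

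Rpl11 had the lowest value at a gene's brightest probe set. Its intensities were 12670 and 12657 on the control arrays, 13251 and 20688 with ACEI, and 5942 and 5781 with ARB. The ACEI arrays were above and the ARB arrays below both controls, and ARB minus ACEI was -1.48 ± 0.46, with an unadjusted p of 0.0115 and an adjusted p of 0.130 by limma. On the other Rpl11 probe set the ACEI arrays, at 9304 and 15971, overlapped the controls, at 9299 and 16383, and ARB minus ACEI was -0.66 ± 0.51. A dimmer probe set of Rpsa was lower, at -1.74 ± 0.58. Rpl36al1 (-1.30 ± 0.54) and Rps10 (-1.17 ± 0.53) were also among the lowest. Rps10 had 6633 and 13423 with ACEI and 4483 and 3823 with ARB, with the controls at 8758 and 5134, so both ARB arrays were below all others. The highest at a gene's brightest probe set were Rpl19l4 (3.26 ± 1.11), Rpl17 (1.90 ± 0.63) and Rps15 (1.76 ± 0.52), with adjusted p-values of 0.143, 0.138 and 0.125 by limma. A dimmer Rpl21 probe set had 2.74 ± 0.57. With array weights in limma, 662 of all 5244 tested probe sets passed. These 3 brightest probe sets and Rpl11 were among them, at adjusted p-values between 0.0378 and 0.0493.

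For 15 genes more than 1 probe set was tested, which gives a repeat of the measurement on the same RNA, not a further sample. In ARB versus control all probe sets of a gene had the same sign for 13 of the 15, lower for 12 and higher for 1, the latter being Rps29 at 0.10 and 0.09. For both drugs together 12 of 15 had 1 sign, and for ACEI 9 of 15. Within the control pair, where no treatment differs, it was 8 of 15. Such counts also rise with the share of all members in 1 direction, 48 of 59 lower for ARB and 43 of 59 higher on control 2. The pair of Rps29 had the closest control differences, 1.68 and 1.83, so the wide gap between the control arrays appeared on both. The pair of Rps3 had the most distant, -2.30 and 0.29.

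The probe sets of Rps3 show how far such values can part. One gave 10685 and 2103 on the control arrays, 7173 and 12087 with ACEI, and 4228 and 3511 with ARB. The other gave 14955 and 18359 on the control arrays, 13987 and 19432 with ACEI, and 8313 and 7969 with ARB. Control 2 was the lowest array on one and the second highest on the other, and ARB versus control was -0.30 ± 0.73 and -1.02 ± 0.45. Rpl3 gave 13925 and 58688 on the controls with one probe set and 10161 and 10003 with the other, while ARB was lower on both (-0.78 ± 0.70 and -1.34 ± 0.46).

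Rpl21 and Rps15 were the genes whose probe sets disagreed on ARB. The brightest probe set of Rpl21, a large subunit protein, had 6925 and 14158 on the control arrays and 7788 and 8023 with ARB (-0.32 ± 0.52). A second gave -0.35 ± 0.49. The other two, designed from a single sequence, had 1448 and 2763 on the control arrays with 6124 and 4181 with ARB (1.30 ± 0.52), and 580.2 and 1673 on the control arrays with 5362 and 4878 with ARB (2.26 ± 0.57, adjusted p of 0.164 by limma). For Rps15 the probe set of type _r_at, a suffix that Affymetrix gave to probe sets built with relaxed selection rules, had 8579 and 9220 on the control arrays, 10639 and 4729 with ACEI, and 23718 and 24916 with ARB. The _s_at probe set had 14865 and 10107, 12555 and 17999, and 6124 and 6431 in the same order. The ARB arrays were thus the highest on one and the lowest on the other, and the direction for the Rps15 mRNA was not settled by these data.

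**Figure D3:**
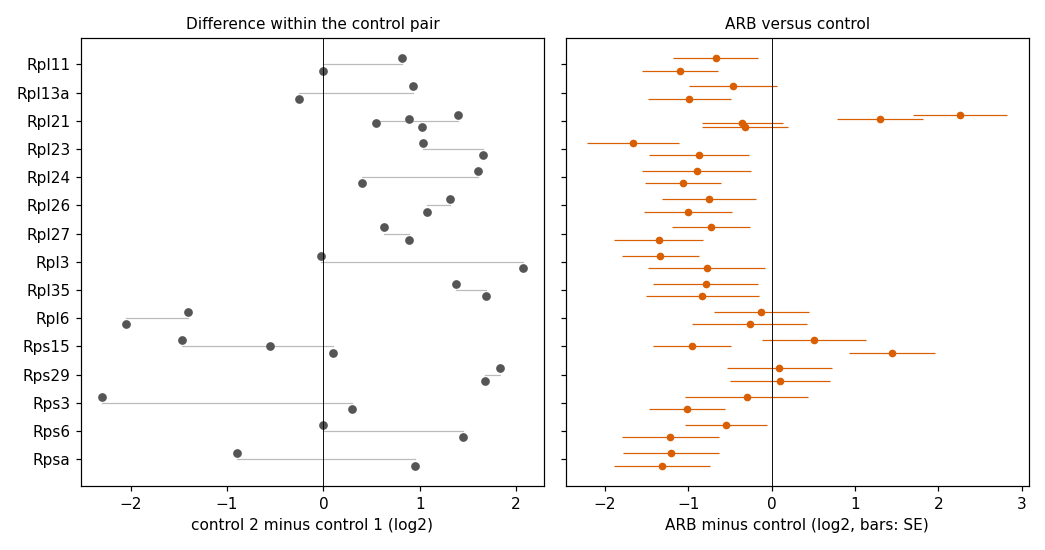
For the 15 genes with more than 1 tested probe set, left the log2 difference of control 2 and control 1 and right ARB minus control with SE, 1 point per probe set. The control differences of a gene scatter to both sides of 0 for Rps3 (-2.30 and 0.29), while the ARB values of a gene lie on 1 side except for Rpl21 and Rps15.

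Members with a TOP-like start near their annotated first base and those without it were both mostly lower, and no test between them was made. For both drugs together 18 of 21 probe sets with such a start were lower (median -0.57) and 23 of 30 without (median -0.37). For ARB 17 of 21 were lower with it (median -0.72) and 26 of 30 without (median -0.77). The sequence windows shown above for Rpl22 and Rpl35a, with a run at the annotated start, and for Rps6 and Rpl36al1, without one within 5 bases of it, belong to genes among the lowest under ARB in both cases. A missing run says only that none begins that close to the annotated start.

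Probe sets that carry several symbols, at least 1 of them ribosomal, were left out by the rule because their gene is not settled. Some may also read genes that are not ribosomal. They come from the same arrays and are counted among the other probe sets above, so they are not an independent repeat. Of 40 such probe sets 39 were tested, among them those that name Rpl10, Rps4x, Rps19 and Rplp2. They were lower for both drugs together in 36 of 39 (median -0.65), for ACEI in 28 (median -0.19) and for ARB in 36 (median -0.997), where 39.8%, 53.3% and 41.4% of all tested probe sets were lower. Both ARB arrays lay below both controls in 31 of them (16.6% of all) and above both in 1 (34.3% of all). Of the members, 5 were too dim to test: both probe sets of the pseudogene Rps2-ps1, Rplp1l3, Rpl5, which binds Mdm2 and 5S rRNA, and the second of Rpl3l. The Rpl5 probe set had 264.3 and 285.2 on the control arrays, 125.6 and 282 with ACEI, and 269.4 and 28.3 with ARB, so its ARB arrays did not repeat each other.

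Other genes of translation, grouped by role, gave a mixed picture, and limma called 0 of them at an adjusted p of 0.05 in any comparison. Of all 5185 tested probe sets that are not members, 39.3% were lower for both drugs together (median 0.15). For ACEI 53.1% were lower (median -0.04), and for ARB 40.9% (median 0.21). Of the elongation factors, 10 probe sets of 5 genes, 6 were lower for both drugs together (median -0.22) and 8 for ARB (median -0.50). Eef1a1, which brings tRNAs to the ribosome, had on its brighter probe set 8761 and 12740 on the control arrays, 8207 and 11726 with ACEI, and 5934 and 6555 with ARB, with ARB below the rest and -0.75 ± 0.47. Its relative Eef1a2, known from neurons and muscle, had 1142 and 396.6 on the control arrays, 1489 and 1175 with ACEI, and 2741 and 3138 with ARB, a difference of 1.42 ± 0.48 for both drugs and 1.97 ± 0.55 for ARB.

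Other mRNAs known for a TOP start were lower in 8 of 9 probe sets for both drugs together (median -0.49), in 8 for ACEI (median -0.48) and in 7 for ARB (median -0.59). Rack1, a scaffold on the small subunit, had 6818 and 13016 on the control arrays, 4915 and 10594 with ACEI, and 5876 and 6590 with ARB. Both ARB arrays lay below both controls, with a difference of -0.59, while ACEI 2 lay between the controls. Naca, which meets the nascent chain at the tunnel exit, had -0.94 for both drugs together and -1.41 for ARB, with 4471 and 10690 on the control arrays and 3012 and 2163 with ARB.

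Initiation factors were near balance around 0, with 12 of 23 probe sets lower for both drugs (median -0.02) and 13 for ARB (median -0.09). Relative to the other probe sets their medians were -0.17 and -0.30. Ribosome biogenesis genes ran the other way, lower in 2 of 11 probe sets for both drugs together (median 0.45) and in 2 for ARB (median 0.79). Dkc1, the pseudouridine synthase of rRNA, had on one of its probe sets 2128 and 3657 on the control arrays, 2839 and 3037 with ACEI, and 7410 and 5700 with ARB. Its ARB arrays were the highest, with a difference of 1.19. Genes of the S6 kinase pathway were lower in 1 of 8 probe sets for both drugs (median 0.33) and in 3 for ARB (median 0.18). Proteins of the mitochondrial ribosome, which is built separately, were lower in 6 of 13 (median 0.05) and, for ARB, in 5 (median 0.30). For ARB the medians of the S6 kinase and mitochondrial lists were near the 0.21 of the other probe sets. The comparisons with control share the same pair of control arrays, so their values are set side by side and are not repeats of each other.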

How the data were processed

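RNA of brain capillaries was measured on 6 Affymetrix RG_U34A arrays. The intensity values deposited by the authors hold 1 value per probe set and array, are linear, and had been scaled so that the mean, trimmed by 2%, lay between 997.7 and 1002; software and background correction are not given in the sources used here. Run day, chip lot and fluidics protocol are per the file headers. Probe sets were named from the platform annotation (1 symbol for 7018, several for 308, none for 1473). Values were taken as log2(intensity + 90). The 59 control probe sets and the 40% of the rest with the lowest mean were left out, so 5244 were tested. limma 3.58.1 (R 4.3.3) fitted 1 mean per group over all arrays (3 residual, 5.39 prior degrees of freedom), two-sided, with Benjamini-Hochberg adjustment over all tested probe sets. The fit was tested on simulated data. Fold changes are log2 differences ± SE, and they understate changes of dim probe sets. The number of arrays limits the precision.

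Members and lists were chosen with earlier results of these data known. Named genes were, at each gene's brightest probe set, the 6 lowest and 4 highest per contrast against control and the 3 lowest and highest for ARB versus ACEI, with genes of several probe sets and a fixed set. Alternatives were other offsets, filters and scalings, replicate and run day blocks, array weights, other summaries per gene, and each array left out. A fit of the later day's arrays was chosen after the data had been seen. Protein sequences were not used here. TOP starts were read from RefSeq promoters (GRCr8) with Python 3.11.15 and pandas 2.3.3, and figures drawn with matplotlib 3.10.9.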

Additional observations from a re-analysis of the deposited data

Results flagged for a closer look

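Rpl11 was singled out because its brightest probe set lay above both controls on both ACEI arrays (13251 and 20688 against 12670 and 12657) and below both on both ARB arrays (5942 and 5781). The difference between the drugs was -1.48 ± 0.46, with an adjusted p of 0.130 in limma, which misses the threshold. The second Rpl11 probe set had the ARB arrays lowest too, but its ACEI arrays overlapped the controls. Rpl11 was the only hit of a search over the brightest probe sets of all 41 tested member genes. How often such an order occurs among all tested probe sets was not counted, so the flag is not a result about Rpl11.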

How the results depend on the processing

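Over all 5244 probe sets the count called at an adjusted p of 0.05 was 0 in each comparison. For both drugs against control it was 3 with an offset equal to the median, 1 after quantile and 1 after cyclic loess normalization, 3 with median centring and 0 to 57 when 1 array was left out. For ACEI it was 3 with the larger offset and 0 to 263 with 1 array left out, for ARB 4 with the larger offset, 2 with median centring and 0 to 103, and for ARB versus ACEI 662 with array weights and 0 to 381. The replicate number coincides with the fluidics protocol, so the replicate block is also a block for that protocol. Over all tested probe sets, deviations of same-numbered arrays were hardly correlated (0.04, -0.01 and -0.00). With this block 3 probe sets were called for both drugs and 2 for ACEI.

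The ribosomal median relative to other probe sets kept its sign in each comparison and alternative except ACEI, which ranged from -0.77 to 0.092 with 1 array left out, with 0.014 without ACEI 1 and 23 to 49 probe sets lower. For ARB it was -0.28 after quantile and -0.35 after cyclic loess normalization, -1.39 on the later run day and -1.39 to -0.45 with 1 array left out. For ARB versus ACEI it was -1.08 on the later run day and -1.08 to -0.28 with 1 array left out. The level per array became 0.62, 0.75, 0.35, 0.88, 0.26 and 0.22 against the brightest 10% (controls, ACEI, ARB), and 3.34 on control 2, 2.98 on ARB 1 and 2.93 on ARB 2 after quantile normalization. Of 612 alternatives for 36 values of named genes, 599 kept the direction and 13 turned it, 10 of them by leaving out 1 array. In 7 a named gene passed the threshold: Rpl11, Rps15, Rpl17 and Rpl19l4 in ARB versus ACEI with array weights, Rpl17 there without control 1 or control 2 (adjusted p 0.0338 for each), and Rpl17 in ARB versus control without control 2 (adjusted p 0.0483). For both drugs Rpl6 turned to -0.066 with median centring, and Rpl17 to -0.27 and Rpl19l4 to -1.08 on the later run day. With 1 array left out the ranges for both drugs were -1.93 to 0.046 for Rps4x-ps9, -0.76 to 1.29 for Rpl6, -0.31 to 1.55 for Rpl17 and -0.15 to 1.73 for Rpl19l4. For ACEI they were -2.71 to 1.03 for Rpl19l4, -0.027 to 0.99 for Rpl18, -0.016 to 0.99 for Rps10 and -0.24 to 1.81 for Rpl6. The cause of these changes was not tested, beyond the smaller number of arrays. Without detection calls, a dim probe set could not be told from background.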
